A study of Drosophila melanogaster with 8 samples.

Results

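The Bomanins are a family of short secreted peptides of the Drosophila immune response. Of the 12 Bomanin genes among the 17471 genes of the table, the 8 described here are BomS1, BomS2, BomS3, BomS5, BomS6, BomBc1, BomBc2 and BomBc3, taken by name. The other 4, BomS4, BomT1, BomT2 and BomT3, are given beside them. RNA of the larval fat body was sequenced in 8 libraries that form 4 groups of 2. The groups are larvae homozygous for the CPSF5 allele H11 starved for 16 h, and wild-type OreR larvae kept fed or deprived of food for 4 h or for 16 h. CPSF5 encodes a subunit of the factor that helps choose where messenger RNAs are cleaved and polyadenylated, the labels do not say what the H11 allele changes, and fed mutant larvae were not analysed here. The labels give the stage as larval without an age, and do not say whether animals were pooled or whether the libraries of a group came from separate animals, so each p-value measures the spread between these libraries, which may be technical.

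In flies, fungi and Gram-positive bacteria are recognised in the blood by soluble receptors, which start a cascade of serine proteases. The cascade cleaves the ligand Spätzle, Spätzle activates the receptor Toll, and the adaptors Myd88 and Tube and the kinase Pelle pass the signal on until the inhibitor Cactus is lost and the NF-kB proteins Dif and Dorsal enter the nucleus. In the fat body, the main source of immune peptides in the blood, Toll signalling switches on drosomycin and the Bomanins, and flies that lack most Bomanin genes resist fungi and Gram-positive bacteria poorly. The short forms (BomS) hold little more than a Bomanin motif, the tailed forms (BomT) carry an extension after it, and the bicipital forms (BomBc) hold a pair of motifs.

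The genes lie in tight groups. The annotation of the same genome build (BDGP6) places 10 of the 12 Bomanin genes, 7 of them members, within 9237 bp of chromosome 2R (18381393 to 18390629). No other gene with deposited values lies between the outermost members there. BomBc1 and BomS1 stand at the left, BomBc2, BomS2 and BomS3 in the middle, and BomS5 and BomS6 next to each other at the right end, 110 bp apart on opposite strands. BomBc3 lies on chromosome 3R (22087075 to 22088501, plus strand), 677 bp from BomT3. BomBc2 on the minus strand overlaps the last 88 bp of BomS4 on the plus strand, and the sources used here do not say whether strand was used to assign reads. The transcripts are short. BomS6-RA and BomS5-RA, at 198 and 218 nt, are the shortest of the family, so their levels per length rest most on the length correction of the authors' tool. Short Bomanins also resemble each other in sequence, and how that tool divided reads between them is uncertain.

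Levels are given as scaled TPM, which is a length-adjusted share of all transcripts divided by 1 factor per library. Read depth cannot be recovered from TPM and is unknown here, so the precision of each value rests on the replicate library. Log2 fold changes are on the scale log2(scaled TPM + 1), which understates the change of low genes, each with its standard error (SE) and with the adjusted p of limma over 8332 tested genes. The libraries differed in composition: ribosomal RNA took 4.56% and 5.38% of TPM in the mutant, and in wild type 5.12% and 6.76% when fed, 12.6% and 14.0% at 4 h and 48.8% and 31.1% at 16 h. Without scaling, the median gene stood at 0.77 in the mutant over wild type at 16 h, at -0.53 at 4 h over fed and at -0.82 at 16 h over fed, against 0.09, -0.03 and 0.01 with it. Of all genes called in the mutant, 63.8% were higher, and 92.1% without scaling. At 4 h these shares were 44.2% and 20.9% (25.8% with rescaling over coding genes), and at 16 h over fed 43.8% and 11.3% (32.4% with that rescaling). For the mutant over fed they were 50.7% and 40.6%. All 8 members passed the filter of a mean of 1 scaled TPM over the 8 libraries, BomBc3 and BomBc1 with means of 2.35 and 1.77, owed to the mutant libraries and to the libraries of 4 h.

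RNA of the 8 members was scarce in the fed fat body and more abundant in every starved library. Summed over the 8 members, it stood at 615 and 1417 scaled TPM in the mutant, and in wild type at 4.80 and 5.12 when fed, 164 and 1292 at 4 h and 197 and 159 at 16 h. Among wild-type libraries 4 h replicate 2 held the most. Over all 12 Bomanin genes the difference was smaller, since BomS4 was present in fed larvae: the sums were 661 and 1521 scaled TPM in the mutant, and in wild type 34.9 and 15.1 when fed, 190.1 and 1447 at 4 h and 219.7 and 169.6 at 16 h. Which members made up this RNA differed between the starved mutant and starved wild type. BomS1, BomS2 and BomS3 led in wild type, whereas BomS6 led in the mutant.

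**Figure D1:**
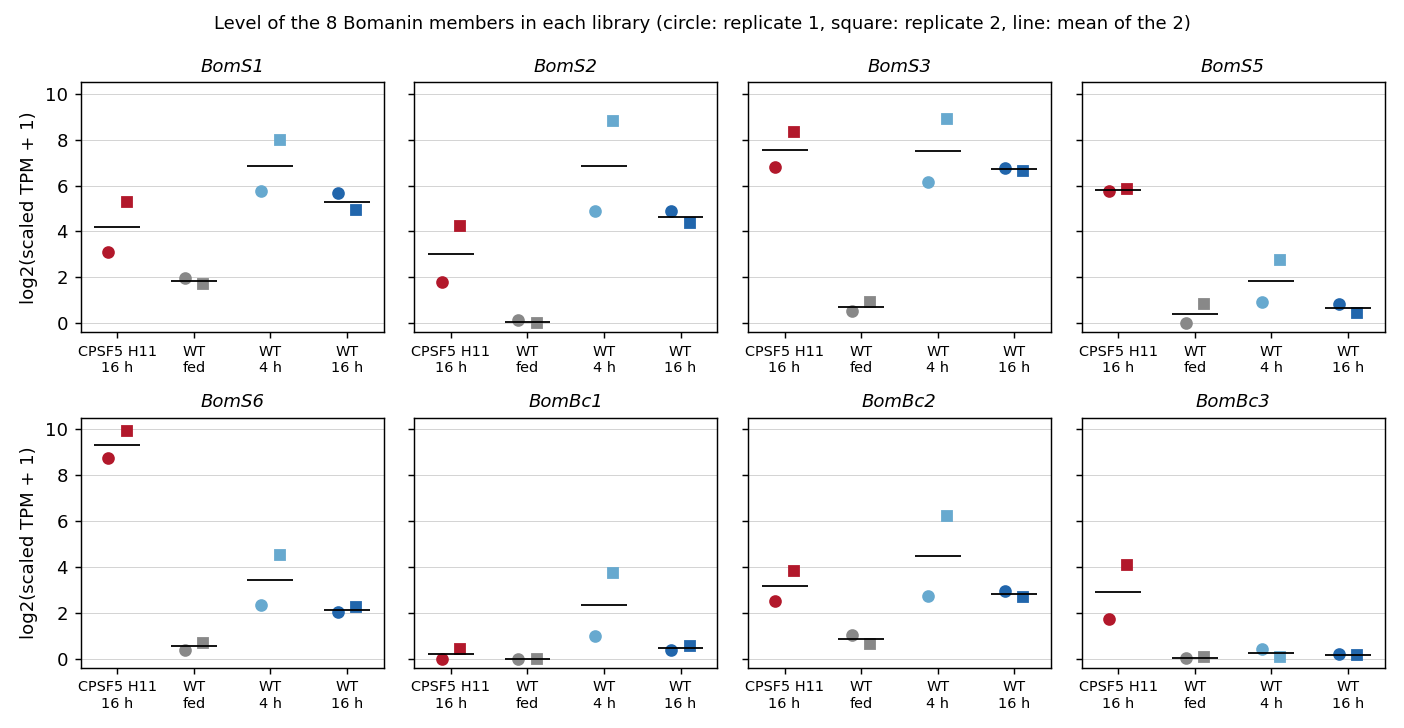
Level of each of the 8 members as log2(scaled TPM + 1) in each library; circles are replicate 1, squares replicate 2 and the line their mean, with the CPSF5 H11 mutant at 16 h left of wild type fed, at 4 h and at 16 h. BomS5, BomS6 and BomBc3 stand highest in the mutant, and the other 5 members stand highest in 4 h replicate 2, with the mutant among or below the starved wild-type libraries.

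After 4 h of starvation in wild type, BomS1, BomS2, BomS3, BomS6 and BomBc2 rose. These are 5 of 8 members, and none fell, while 21.1% of all tested genes passed as higher and 26.6% as lower. In 7 members both 4 h libraries lay above both fed ones, as in 35.5% of all tested genes, and in none did both lie below (39.7%). The 7 include BomBc1, which reached the filter only through the 4 h libraries. The members' median log2 fold change was 3.26, against -0.03 over all genes. BomS3, a short form known as an immune-induced peptide of the blood, stood at 70.2 and 474 scaled TPM at 4 h against 0.436 and 0.905 in fed larvae (log2 fold change 6.80, SE 0.91, adjusted p = 0.00163). BomS2, another short form, stood at 28.9 and 451 scaled TPM at 4 h, against 0.0863 in one fed library and a listed 0 in the other (6.80, SE 1.33, adjusted p = 0.00700). BomS1, the one member with more than 2 scaled TPM in both fed libraries, stood at 52.9 and 254 at 4 h against 2.92 and 2.24 in fed larvae (5.04, SE 0.92, adjusted p = 0.00546). In all 3 genes the lower 4 h library still held more than 10 times the level of the higher fed one.

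The bicipital member BomBc2 rose to 5.53 and 72.4 scaled TPM at 4 h, against 1.05 and 0.562 in fed larvae (log2 fold change 3.61, SE 1.08, adjusted p = 0.0335). BomS6 rose on a lower level, with 4.10 and 22.0 scaled TPM at 4 h against 0.308 and 0.602 in fed larvae (2.90, SE 0.72, adjusted p = 0.0175). The other bicipital member of the 2R group, BomBc1, was listed at 0 in both fed libraries and had 0.983 and 12.1 scaled TPM at 4 h. It reached the filter only through the 4 h libraries, so these values are a description. BomS5 did not pass, at 0.906 and 5.76 scaled TPM at 4 h against a listed 0 and 0.760 in fed larvae (1.44, SE 0.59, adjusted p = 0.0919). BomBc3 stayed under 0.4 scaled TPM in all of these libraries (0.332 and 0.0366 at 4 h, 0.00860 and 0.0472 in fed larvae; adjusted p = 0.865). Without fed replicate 1 or without fed replicate 2, BomS1, BomS2 and BomS3 alone stayed called (3 members), with adjusted p of 0.106 and 0.136 for BomBc2 and 0.0885 and 0.0685 for BomS6. The BomBc2 call was also lost without either wild-type 16 h library or either mutant library (adjusted p 0.0519 to 0.0546).

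The 4 h libraries differed from each other more than most genes did. Replicate 2 exceeded replicate 1 in 7 of 8 members, by 4.81 times in BomS1, 6.75 in BomS3, 13.1 in BomBc2 and 15.6 in BomS2. Each of these 7 differences was larger than that of more than 95% of tested genes between the same libraries. Other peptides under Toll control moved with them, since drosomycin (Drs) was 3.51 times and Daisho 1 (Dso1) 5.14 times higher in replicate 2. Without 4 h replicate 1, the log2 fold change over fed was 2.35 in BomS5, against 1.44 with all libraries. It was 3.71 in BomBc1, against 2.35 with all libraries. BomBc1 reached the filter only through the 4 h libraries, so its values are a description.

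At 16 h of starvation in wild type, BomS1, BomS2 and BomS3 stood above fed larvae (3 of 8 members, none lower, against 21.6% of all tested genes higher and 27.7% lower), with a median of 1.79 over the members and 0.01 over all genes. BomS3 held the highest level, at 107 and 99.7 scaled TPM at 16 h (log2 fold change over fed 5.98, SE 0.91, adjusted p = 0.00263). BomS1 stood at 49.9 and 29.7 scaled TPM (3.47, SE 0.92, adjusted p = 0.0222) and BomS2 at 28.9 and 19.9 (4.58, SE 1.33, adjusted p = 0.0300). BomBc2 at 6.72 and 5.50 scaled TPM (1.99, SE 1.08, adjusted p = 0.177) and BomS6 at 3.03 and 3.71 (1.59, SE 0.72, adjusted p = 0.116) lay above both fed libraries without passing. In 7 members both 16 h libraries lay above both fed ones, as in 38.1% of all tested genes, and in none did both lie below (41.4%). BomS5 overlapped the fed libraries, at 0.810 and 0.375 scaled TPM, and its log2 fold change of 0.25 turned to -0.06 without scaling. Of the 11 tested genes among all 12 Bomanins, 4 were higher at 16 h over fed and 1, BomS4, was lower. The count of 3 members fell to 1, with BomS3 alone, without either fed library or either wild-type 16 h library. It was 5 without either 4 h library, where BomBc2 and BomS6 passed as well, and 6 in a fit on the fed and 16 h libraries only.

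Between 4 h and 16 h in wild type, none of the 8 members passed in either direction (limma). Of all tested genes, 0% passed as higher and 0.0360% as lower. At an unadjusted p under 0.05 the count was 0 of 8 members, against 1337 of 8332 tested genes. For BomBc1, BomS1, BomS5 and BomS6 both 16 h libraries lay below both 4 h libraries, as in 22.6% of all tested genes, and no member lay wholly above (22.7%). BomBc1 reached the filter only through the 4 h libraries, so its place below them is a description. The log2 fold change was -1.57 for BomS1 (SE 0.92, adjusted p = 0.447) and -0.82 for BomS3 (SE 0.91, adjusted p = 0.687), and that of BomS3 turned to 0.55 without 4 h replicate 2.

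In the mutant at 16 h, BomS6 and BomS5 stood above wild type starved as long. With BomBc3, which reached the filter only through the mutant libraries and so had to differ, 3 of 8 members passed and none was lower, against 21.4% of all tested genes higher and 12.1% lower. Without a filter, with a filter of 5, or in a fit on the compared groups only, 2 passed, BomS5 and BomS6. The members' median was 0.60, against 0.09 over all genes. Both mutant libraries lay above both wild-type ones in 4 members (41.2% of all tested genes) and below both in 1 (31.2%). The 4 were BomS3, BomS5, BomS6 and BomBc3, the last of which had to lie above by the filter. BomS6 rose to 433 and 957 scaled TPM in the mutant, against 3.03 and 3.71 in wild type at 16 h (log2 fold change 7.21, SE 0.72, adjusted p = 0.00161). Of 8332 tested genes, 5 had a larger log2 fold change, which placed BomS6 at rank 6. Its neighbour BomS5 stood at 54.0 and 57.4 scaled TPM in the mutant against 0.810 and 0.375 in wild type (5.17, SE 0.59, adjusted p = 0.00227). BomBc3, on the other chromosome, stood at 2.28 and 15.8 scaled TPM in the mutant against 0.147 and 0.105 in wild type, values given as a description.

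The members that led in starved wild type did not pass in the mutant. BomS1 stood at 7.65 and 37.5 scaled TPM in the mutant against 49.9 and 29.7 in wild type at 16 h (log2 fold change -1.11, SE 0.92, adjusted p = 0.388). BomS2 lay below both wild-type libraries, at 2.44 and 17.7 scaled TPM in the mutant against 28.9 and 19.9 (-1.64, SE 1.33, adjusted p = 0.376). BomS3 lay above both, at 112 and 318 scaled TPM against 107 and 99.7 (0.86, SE 0.91, adjusted p = 0.500). BomBc2 overlapped wild type, at 4.65 and 13.0 scaled TPM against 6.72 and 5.50 (0.33, SE 1.08, adjusted p = 0.838), and its direction turned without mutant replicate 2 (-0.33). BomBc1 was listed at 0 in one mutant library and had 0.333 scaled TPM in the other, against 0.297 and 0.446 in wild type (adjusted p = 0.839). With standard errors near 1, changes of a few fold in these 5 genes were not detectable.

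The mutant libraries were alike in BomS5 and differed in most other members. Mutant replicate 2 exceeded replicate 1 in all 8 members, by 1.06 times in BomS5, 2.21 in BomS6, 2.85 in BomS3, 6.96 in BomBc3 and 7.25 in BomS2. BomS5 and BomS6 stayed called in the mutant over wild type at 16 h without any 1 of the 8 libraries and with every scaling, pseudocount and filter tried. BomBc3 was not called without a filter (adjusted p = 0.0590), in a fit on the compared groups only (0.0968), without either fed library (0.0599 and 0.0604) or without either wild-type 16 h library (0.0937 and 0.0981).

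**Figure D2:**
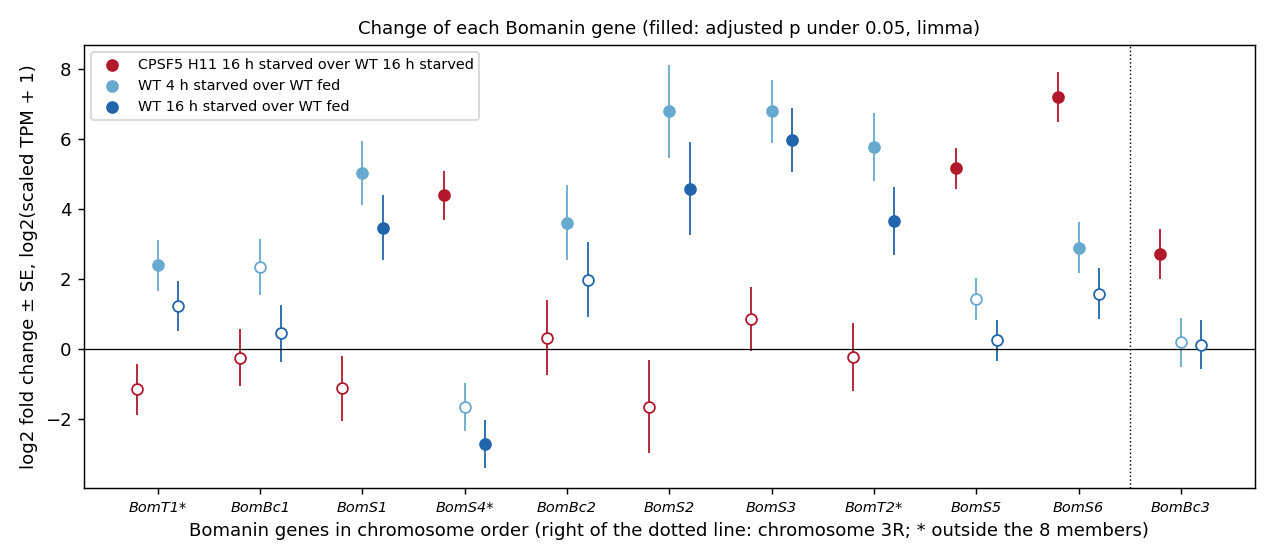
Log2 fold change on the log2(scaled TPM + 1) scale with its SE for the 11 tested Bomanin genes in chromosome order, for the mutant over wild type at 16 h, 4 h over fed and 16 h over fed in wild type; filled points have an adjusted p under 0.05 in limma and asterisks mark genes outside the 8 members. The mutant values are highest in BomS6 and BomS5 at the right end of the 2R group and in BomS4, while the 4 h values are highest in BomS2, BomS3 and BomT2; the values of BomBc1 and BomT1 over fed depend on the pseudocount, since both fed libraries list them at 0.

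Against fed wild type, where genotype and starvation differ together and cannot be told apart, 4 members were higher in the starved mutant and none lower (23.0% and 22.4% of all tested genes). Both mutant libraries lay above both fed ones in 7 members, BomBc3 among them (42.5% of all tested genes), and below both in none (37.2%). The 4 called higher were BomS6 (log2 fold change 8.80, SE 0.72, adjusted p = 0.000390, rank 2 of 8332), BomS3 (6.84, SE 0.91, adjusted p = 0.00204), BomS5 (5.42, SE 0.59, adjusted p = 0.000998) and BomBc3. BomBc3 again reached the filter only through the mutant and so had to differ. This comparison shares its mutant libraries with the one above and its fed libraries with those of starved wild type. Without 4 h replicate 1 or without 4 h replicate 2, 7 members passed, all except BomBc1, and without either fed library 3 passed, with BomBc3 lost. BomS3 was thus called over fed in all 3 starved groups. BomS5 was called over fed in the mutant and in neither wild-type group, and its direct comparison of mutant and wild type at 16 h is given above.

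The make-up of the family within a library does not depend on how libraries are scaled. BomS6 held 70.3% and 67.6% of the 8 members' summed TPM in the mutant, and in wild type 6.41% and 11.8% when fed, 2.5% and 1.71% at 4 h and 1.54% and 2.33% at 16 h. BomS3 held 18.1% and 22.4% in the mutant, and in wild type 9.09% and 17.7% when fed, 42.9% and 36.7% at 4 h and 54.4% and 62.5% at 16 h. BomS1 held 1.24% and 2.65% in the mutant, against 25.3% and 18.6% in wild type at 16 h. BomS1 led the small amount present in fed larvae, with 60.7% and 43.8%. BomS5 held 8.77% and 4.05% in the mutant against 0.412% and 0.235% in wild type at 16 h. In none of these 4 genes did the mutant shares overlap those of wild type at 16 h. The shares of a library add up to the whole, so a larger share of BomS6 by itself lowers the others. The share of BomS3 was lower in the mutant though its level was higher, at 112 and 318 scaled TPM against 107 and 99.7. The level of BomS1 overlapped wild type at 16 h.

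**Figure D3:**
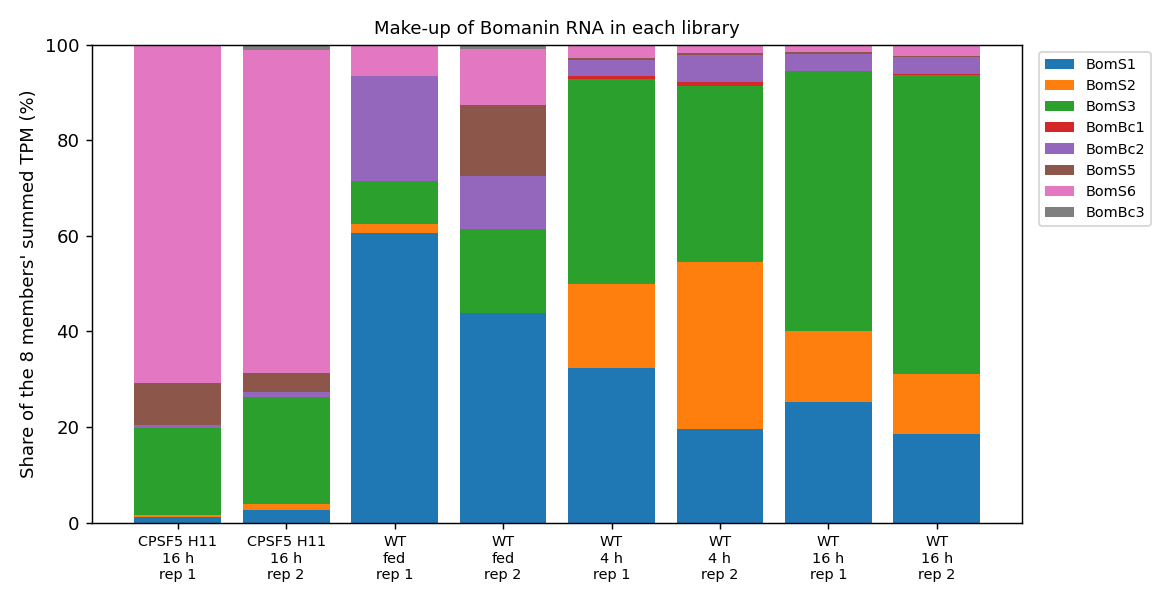
Share in percent of each member in the summed TPM of the 8 members, 1 bar per library, with the mutant left of wild type fed, at 4 h and at 16 h. BomS6 fills 70.3% and 67.6% of the mutant bars and no more than 2.5% of any starved wild-type bar, where BomS1, BomS2 and BomS3 fill most.

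The members fell into 2 patterns over the 8 libraries. On the log2(scaled TPM + 1) scale, Pearson's r over the 8 libraries was 0.99 between BomS1 and BomS2, 0.92 between BomS1 and BomBc2, and 0.85 between BomS1 and BomS3. It was 0.98 between BomS5 and BomS6 and 0.88 between BomS6 and BomBc3, but 0.24 between BomS1 and BomS6 and 0.06 between BomS1 and BomBc3. BomS3 lay between the patterns, with 0.65 to BomS6. BomBc3 reached the filter only through the mutant libraries, so its values of r are a description and lend the second pattern no support. All these values describe the 8 libraries, which share 4 groups and their scaling, and similar paralogues may share reads.

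The 4 Bomanin genes outside the 8 members fell on either side of these patterns. BomT2, between BomS3 and BomS5, had 5.06 and 18.9 scaled TPM in the mutant, and in wild type a listed 0 and 0.0311 when fed, 21.8 and 135 at 4 h and 19.5 and 7.12 at 16 h. It rose at 4 h (log2 fold change 5.77, SE 0.97, adjusted p = 0.00381). BomT1, which reached the filter only through the 4 h libraries and is given without a test, had 1.29 and 11.2 scaled TPM at 4 h and was listed at 0 in both fed libraries. BomS4 was the main Bomanin of the fed fat body, with 86.1% and 64.7% of the summed TPM of all 12 genes there. It stood at 40.2 and 83.1 scaled TPM in the mutant, and in wild type at 30.1 and 9.78 when fed, 2.41 and 8.86 at 4 h and 1.65 and 1.95 at 16 h. BomS4 fell at 16 h over fed (-2.71, SE 0.69, adjusted p = 0.0194) and was higher in the mutant over wild type at 16 h (4.40, SE 0.69, adjusted p = 0.00607). BomT3, next to BomBc3, stayed under the filter, with 0.818 and 2.58 scaled TPM in the mutant and at most 0.776 in any wild-type library.

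The coding genes beside the 2R group were also examined. Idgf5, an imaginal disc growth factor 3036 bp to the right of BomS6, stood at 142 and 101 scaled TPM in the mutant against 62.4 and 72.0 in wild type at 16 h (log2 fold change 0.83, adjusted p = 0.0356) and did not pass at 4 h over fed (-0.22, adjusted p = 0.478). The nearest coding gene with deposited values on the left, sbb, lies 24096 bp away and stood between 0.408 and 1.94 scaled TPM in all libraries. BomS3-RA held 91.6% to 100% of BomS3 TPM in the 8 libraries. BomBc2-RB (18385030 to 18385589), which ends short of the overlap with BomS4, held 95.5% to 98.7% of BomBc2 in the 6 starved libraries and 41.1% and 63.6% in the fed ones. BomBc3-RA, the shortest transcript of BomBc3, held 87.1% and 94.8% of it in the mutant.

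Most other effectors of the Toll pathway rose in starved wild type along with the first pattern. Of 9 such genes, 8 rose and none fell at 4 h over fed, with a median log2 fold change of 6.15 (21.1% of all tested genes higher, 26.6% lower). The 8 include GNBP-like3, which reached the filter only through the 4 h libraries. At 16 h over fed, 7 rose and none fell (median 5.26, all genes 21.6% and 27.7%). In the mutant over wild type at 16 h, 1 fell and none rose (median 0.42). Of all tested genes 12.1% were lower there, near the share here, and 21.4% higher. The antifungal peptide drosomycin (Drs) stood at 537 and 1495 scaled TPM in the mutant, against 467 and 311 in wild type at 16 h (log2 fold change 1.23, SE 0.74, adjusted p = 0.242). At 4 h it stood at 1299 and 4561 scaled TPM, against 0.824 and 2.09 in fed larvae (adjusted p = 0.000184), and its log2 fold change at 16 h over fed was 7.33 (SE 0.74, adjusted p = 0.000560). Of 7 genes of the drosomycin family 4 were tested, and Drs alone of them passed at 4 h and at 16 h over fed. The Daisho peptides are antifungal peptides of the blood. Dso2 stood at 9.16 and 10.9 scaled TPM in the mutant against 251 and 92.9 in wild type at 16 h (-3.80, SE 0.60, adjusted p = 0.00601), while Dso1 did not pass (-2.37, SE 1.17, adjusted p = 0.168). Bbd (Bombardier), which short Bomanins need to reach the blood, rose at 4 h to 206 and 868 scaled TPM against 15.4 and 29.0 in fed larvae (4.26, SE 0.70, adjusted p = 0.00349). It did not pass in the mutant over wild type at 16 h (-0.22, adjusted p = 0.830).

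Receptors and signal carriers of the pathway had smaller median changes. Of 13 genes for recognition and the protease cascade, 5 rose and 1 fell at 4 h over fed (median log2 fold change 0.53), 3 rose and 1 fell at 16 h over fed, and 3 were higher and 3 lower in the mutant over wild type at 16 h (median -0.27). Of the 3 higher in the mutant, sphe reached the filter only through the mutant libraries, so its values are a description. It stood at 2.63 and 15.3 scaled TPM there and at most 0.248 in any wild-type library. Of all tested genes, 21.1% were higher and 26.6% lower at 4 h over fed. At 16 h over fed 21.6% were higher, near the share here, and 27.7% lower. In the mutant over wild type at 16 h, 21.4% were higher, also near the share here, and 12.1% lower. GNBP3, a receptor for fungal cell walls, stood at 103 and 96.5 scaled TPM at 4 h against 46.2 and 44.7 in fed larvae (1.11, SE 0.18, adjusted p = 0.00332). In the mutant over wild type at 16 h, PGRP-SA, a receptor for Gram-positive cell walls, was lower (12.3 and 12.1 against 35.7 and 44.2 scaled TPM; -1.63, adjusted p = 0.00638). GNBP1, which acts with it, was higher (10.6 and 14.9 against 3.35 and 3.50; 1.62, adjusted p = 0.00341). Of 10 genes from the ligand to the NF-kB proteins, 5 rose and none fell at 4 h (median 0.69) and at 16 h (median 0.76) over fed. In the mutant over wild type at 16 h, 2 fell and none rose (median -0.08). The shares of all tested genes given above apply to these counts too. The receptor gene Tl stood at 18.3 and 16.1 scaled TPM in the mutant, and in wild type at 3.96 and 3.27 when fed, 11.6 and 14.6 at 4 h and 14.1 and 20.2 at 16 h. It rose at 4 h (1.61, SE 0.22, adjusted p = 0.00177) and did not pass in the mutant over wild type at 16 h (0.02, adjusted p = 0.962). Pli (Pellino), a regulator of Pelle, rose at 4 h (3.18, adjusted p = 0.000357) and fell in the mutant relative to wild type at 16 h (-1.27, adjusted p = 0.0189). The ligand gene spz and the inhibitor gene cact did not pass in these comparisons, with adjusted p of 0.0822 or more for spz and 0.0646 or more for cact.

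The Imd pathway, which answers mainly to Gram-negative bacteria, showed another picture. Of 12 tested genes for its effectors, 5 fell and none rose at 4 h over fed (median log2 fold change -2.46). At 16 h over fed 4 fell and none rose (median -1.14). Of all tested genes, 26.6% passed as lower at 4 h and 27.7% at 16 h. CecA1 and CecC, counted as fallen at both times, reached the filter only through the fed libraries, so their values are a description. In the mutant over wild type at 16 h, 1 was higher and 1 lower (median 0.34). The higher one was Def, the defensin gene, with 31.3 and 106 scaled TPM in the mutant, and in wild type at most 0.783 in any library. It reached the filter only through the mutant libraries, so these values are a description. Drosocin (Dro) stood at 1.07 and 0.682 scaled TPM at 4 h against 161 and 113 in fed larvae (-6.19, SE 0.94, adjusted p = 0.00265). Of 12 genes of Imd signalling itself, 3 rose and none fell at 4 h and likewise at 16 h over fed, and 1 fell in the mutant over wild type at 16 h. The shares that rose lay near those of all tested genes (21.1% and 21.6%), of which 12.1% were lower in the mutant.

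**Figure D4:**
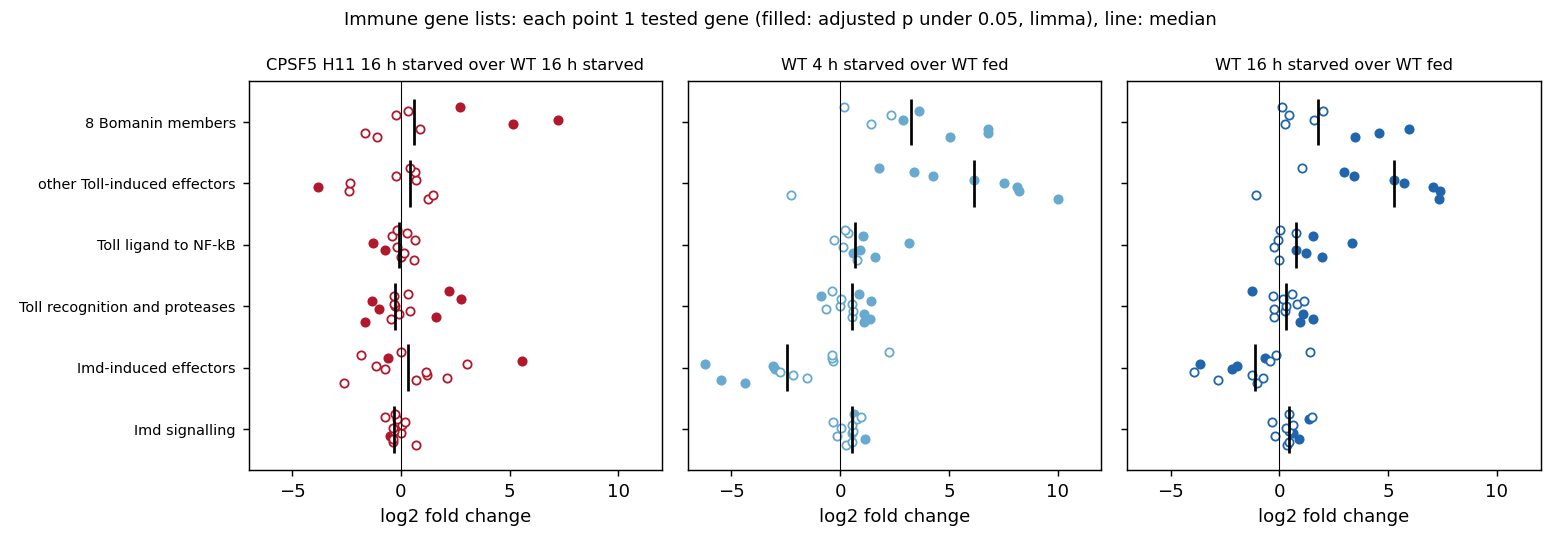
Log2 fold change of each tested gene of 6 immune lists in the mutant over wild type at 16 h, at 4 h over fed and at 16 h over fed; filled points have an adjusted p under 0.05 in limma and bars are medians. At 4 h the medians of the 8 members (3.26) and of other Toll-induced effectors (6.15) lie right of 0 and that of Imd-induced effectors (-2.46) left of it.

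Markers of other tissues moved with the groups. Fat body markers were present in every library, with the lipid carrier gene apolpp between 1159 and 2335 scaled TPM, but the storage protein gene Lsp2 stood at 8.64 and 16.7 in the mutant against 23728 and 24705 in wild type at 16 h. Of 10 fat body markers, 3 rose and 1 fell at 4 h and likewise at 16 h over fed. Over all tested genes 21.1% rose and 26.6% fell at 4 h, and 21.6% and 27.7% at 16 h. In the mutant over wild type at 16 h, 4 fat body markers were higher and 5 lower (21.4% and 12.1% of all tested genes). Summed over 8 midgut markers, mutant libraries had 50.2 and 330 scaled TPM, and wild-type libraries 114 and 194 when fed, 0.527 and 0.338 at 4 h and 0.871 and 5.46 at 16 h. In the mutant over wild type at 16 h, 5 of 6 tested midgut markers were higher (21.4% of all tested genes), and the midgut sum, like all 8 members, was higher in mutant replicate 2. Among these 5, alphaTry, betaTry and LysD reached the filter only through the mutant libraries. Summed over 8 hemocyte markers, mutant libraries had 111 and 26.2 scaled TPM, and wild-type libraries 13.2 and 13.7 when fed, 43.8 and 35.2 at 4 h and 18.3 and 19.2 at 16 h. Of 6 tested, 3 rose at 4 h over fed (21.1% of all tested genes) and 1 was higher in the mutant over wild type at 16 h (21.4%). The higher one was Hml, at 5.77 and 3.525 scaled TPM in the mutant against 1.09 and 0.891 in wild type. Hml reached the filter only through the mutant libraries, and Pxn, among those risen at 4 h, only through the 4 h libraries. The values of both are a description. The untested eater, a hemocyte receptor, stood at 0.146 and 0.277 in the mutant against 0.967 and 1.20 in wild type at 16 h. PPO1 and PPO2, at 38.9 and 50.4 scaled TPM, made up most of the hemocyte sum in mutant replicate 1. Summed over 7 salivary gland markers, mutant libraries had 5.32 and 5.93 scaled TPM. Wild-type libraries had 46.5 and 5.39 when fed, 21657 and 23817 at 4 h and 12658 and 38453 at 16 h. Sgs1, Sgs3, Sgs4, Sgs5 and Eig71Ee reached the filter only through the starved wild-type libraries, so their values are a description. The others, Sgs7 and Sgs8, rose at 4 h and at 16 h over fed (21.1% and 21.6% of all tested genes). Both fell in the mutant relative to wild type at 16 h (12.1%). All 5 tested muscle markers fell at 4 h and at 16 h over fed (26.6% and 27.7% of all tested genes). None passed in the mutant over wild type at 16 h (21.4% higher and 12.1% lower over all tested genes). Sums over the 6 markers were 67.2 and 36.9 scaled TPM in the mutant, 121 and 84.6 in fed, 16.4 and 3.69 at 4 h and 15.6 and 21.7 at 16 h wild type. In such bulk tissue, fewer cells of a type and less RNA per cell cannot be told apart, and the part of these tissues in the Bomanin values was not tested.

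Of 3893 coding genes averaging at least 5 scaled TPM, the 10 whose pattern over the 8 libraries was most like the members' mean profile had Pearson's r of 0.959 to 0.983. They were alc, the beta subunit of the AMP-activated kinase, Obp99c, CG32032, Atg4a, a protease that processes Atg8, Idgf3, pippin, CG8839, Rab18, CG32695 and the thioester protein gene Tep2. Tep2 stood at 129 and 153 scaled TPM in the mutant, and in wild type at 44.4 and 46.3 when fed, 103 and 147 at 4 h and 120 and 90.1 at 16 h. Among the immune genes listed, drosomycin came nearest, at rank 24 with r of 0.928. The mean profile blends the unlike patterns described above, so a gene like it need not follow any single member.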

How the data were processed

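Fat body RNA came from Trizol extraction and went into stranded, ribosomal RNA-depleted total RNA libraries, per the labels' protocols. STAR 2.5.3 and build BDGP6 are named, per the submitters' processing notes. Which tool estimated expression, with which annotation and use of strand, is not given in the sources used here. Expression was deposited by the authors as TPM per gene (17471 genes) and per transcript, 1 column per sample.

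Symbols came from a later annotation of BDGP6: 17249 identifiers matched directly, 132 through equal isoform sums (relative tolerance 0.0001) and 90 kept their identifier. TPM were divided by a median-of-ratios factor from 5393 genes that reached 1 TPM in every library. Genes averaging at least 1 scaled TPM (8332) were tested on log2(scaled TPM + 1) with limma 3.58.1 in R 4.3.3, with 1 mean per group over all 8 libraries, a variance trend, two-sided, with p adjusted by Benjamini-Hochberg over all tested genes; calls have an adjusted p under 0.05. The script was tested on simulated data. With 4 residual degrees of freedom (median of 6.16 after moderation), calls rest on pooled spread. Replicates were numbered in accession order. The alternatives tried were no scaling, rescaling over coding genes, a pseudocount of 0.1, no filter, a filter of 5, a fit on the groups compared only, and each library left out. The members and the 12 gene lists were chosen with earlier results of these data known. Named genes are the members, the other Bomanins, their neighbours, up to 4 genes of a list by size of change among those called (or up to 2 by p where none was called), and 10 genes by likeness; further list genes were named after their values were seen. Where a list name is an older symbol, its current symbol was used. No sequences are shown, since none for these genes was used here.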

Additional observations from a re-analysis of the deposited data

How the results depend on the processing

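Scaling and pseudocount left every member count within 1.5 times its value with all settings as reported. The number of members higher at 16 h over fed in wild type, 3 in the report, was 1 without a filter and 6 in a fit on the compared groups only, and ran from 1 to 5 when each library was left out in turn. The number at 4 h over fed, 5 in the report, was 3 in a fit on the compared groups only and ran from 3 to 7. The number higher in the mutant over fed, 4 in the report, ran from 3 to 7, and that in the mutant over wild type at 16 h, 3 in the report, from 2 to 3. No member was called lower under any of these settings. Some of the counts at 4 h over fed, and the 6 at 16 h over fed, include BomBc1, which reached the filter only through the 4 h libraries. At 16 h BomBc1 had 0.297 and 0.446 scaled TPM, against a listed 0 in both fed libraries. Some of the mutant counts include BomBc3, which reached the filter only through the mutant libraries. Of the member values recomputed under alternatives, 491 kept their direction and their side of the threshold, 30 lost a call, 23 gained one and 6 turned direction, none of which was called. BomS5 at 16 h over fed (0.25) was -0.059 without scaling and ran from -0.16 to 0.66 with a library left out. BomBc2 ran from -0.33 to 0.98 in the mutant over wild type at 16 h and from -3.37 to 0.12 at 16 h over 4 h, BomS3 at 16 h over 4 h from -2.19 to 0.55, and BomBc3 at 16 h over 4 h from -0.24 to 0.12. The cause was not tested. For all genes at 16 h over fed, 1801 were called higher, and 521 without scaling, 1219 with rescaling over coding genes. For the mutant over wild type at 16 h 1781 were called higher and 1010 lower, and 3864 and 333 without scaling. At 4 h over fed 1759 were called higher, and 799 without scaling. No paired analysis was possible because the labels carry no replicate numbers. TPM keep no depth, so values near 0 cannot be given a counting error.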
